A study of Mus musculus with 12 samples.

Results

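Myosin heavy chains were examined as a gene family in RNA-seq of the postnatal day (P)6 mouse cochlea, in which the number of reads on each gene estimates how much of its transcript the tissue holds. Members were the gene symbols of the count table that are *Myh* or *Myo* followed by a number and at most 1 letter. This gave 38 of 28686 symbols, of which 14 are conventional heavy chains (*Myh*) and 24 are unconventional myosins (*Myo*). The 6 mutants were *Sox2*CreER/+ *Jag1*fl/fl mice, in which tamoxifen lets CreER remove both copies of *Jag1*, a Notch ligand, in cells that express *Sox2*. The 6 controls were *Sox2*+/+ littermates, which the study's methods describe as carrying 1 or 2 floxed *Jag1* alleles and no CreER. All pups received tamoxifen at P0 and P1, and the labels give the strain as C57BL/6;129SV. The study's methods differ from this, with C57BL/6J as the background of the CreER line and FVB/n as that of the floxed *Jag1* line. CreER is inserted into *Sox2* and in the cochlea is expressed in every type of supporting cell, so the effects of the *Sox2* and *Jag1* alleles cannot be told apart.

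Libraries held 28498549 to 36134983 counts. *Jag1* itself lay between 83.0 and 118 CPM (counts scaled to a common library size) in controls and between 24.2 and 42.9 CPM in mutants, so each library followed its label. Markers of hair cells and supporting cells were present in every library, and so were markers of other cochlear cells. The summed level of 8 cartilage and bone genes was 24668 to 33109 CPM over the 12 mice. Most of it came from *Col2a1* and *Col9a1*, with control means of 21084 and 7403 CPM, and each other gene averaged at most 230 CPM. This sum therefore does not give the share of RNA from cartilage and bone. The summed level of 6 melanocyte genes was 696 to 1176 CPM over the same mice. A level given below is therefore an average over many cell types, in which fewer cells of a type and less RNA per cell cannot be told apart. Markers of neurons and of Schwann cells, which wrap axons, were higher in most mutants. The summed level of 16 neuron genes was 193 to 342 CPM in controls and 224 to 1585 CPM in mutants, and 14 of the 16 had an unadjusted edgeR p under 0.05, all higher in mutants. The summed level of 14 Schwann cell genes was 1502 to 2486 CPM in controls and 2257 to 7542 CPM in mutants, with 12 of the 14 at that p, all higher. None of these marker genes passed an adjusted p of 0.05. Mutants 1, 2 and 4 held the 3 highest neuron sums, at 799, 721 and 1585 CPM.

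Myosins are motors that bind actin filaments and move along them by hydrolysing ATP. Conventional heavy chains pair into filaments that pull actin together, in the sarcomeres of muscle and, as nonmuscle myosin II, at cell junctions and in the cell cortex. Unconventional myosins work as single or paired motors that carry cargo, tether membranes to actin or build actin-filled protrusions. The ear depends on them: hair bundles are rows of actin-filled stereocilia, and mutations in several myosin genes cause deafness.

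The members' start sites differed in their letters. RefSeq windows on GRCm38.p6, 250 bases before to 50 bases after the start, were found for 32 of the 38 members, and where a gene had several the window with the most CG dinucleotides was used. *Myh9*, the highest member per length, had 19 CG in its window, on the minus strand of chromosome 15. *Myh4*, the heavy chain of fast skeletal fibres, had 1 CG and a TATAAA, read on the strand of the gene, within 50 bases before its start on chromosome 11. The 250 bases before each start are given, to set a widely used start site beside a muscle one, at chr15:77842176-77842425 for *Myh9*, with each CG in capitals, and at chr11:67237562-67237811 for *Myh4*, with that TATAAA in capitals.

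Myh9: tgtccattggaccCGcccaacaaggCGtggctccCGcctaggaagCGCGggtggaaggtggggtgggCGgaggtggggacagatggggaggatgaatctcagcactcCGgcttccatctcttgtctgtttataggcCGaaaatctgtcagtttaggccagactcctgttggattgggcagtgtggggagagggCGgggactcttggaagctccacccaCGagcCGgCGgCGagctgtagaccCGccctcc
Myh4: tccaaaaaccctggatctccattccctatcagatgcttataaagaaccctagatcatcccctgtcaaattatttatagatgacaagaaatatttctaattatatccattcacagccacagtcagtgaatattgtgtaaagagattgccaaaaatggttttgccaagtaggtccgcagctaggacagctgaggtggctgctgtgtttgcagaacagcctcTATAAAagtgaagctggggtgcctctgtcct

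Of the 16 members with a window and a control level of at least 1 CPM per kilobase (kb) of exon, 12 had 15 or more CG, with a median of 18.5. Of the 16 with a lower level, 11 had 5 or fewer CG, 3 had 15 or more, and the median was 4. Over all 27025 symbols of the table, each by its window with the most CG, the median was 8, with 37.1% at 15 or more and 41.8% at 5 or fewer. Across the 32 members the Spearman correlation of CG number with the level per length was 0.641, given as a description over genes measured in the same libraries. Among the 10 sarcomeric heavy chains the window held between 0 and 9 CG, and 3 of them, *Myh1*, *Myh3* and *Myh4*, had the TATAAA, against 0 of the 22 other members and 2.63% of all 32851 windows. *Myo16* and *Myo3a*, with low levels, had 23 and 16 CG, and *Myo18a*, with a high level, had 5, so the relation had exceptions in both directions.

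**Figure D1:**
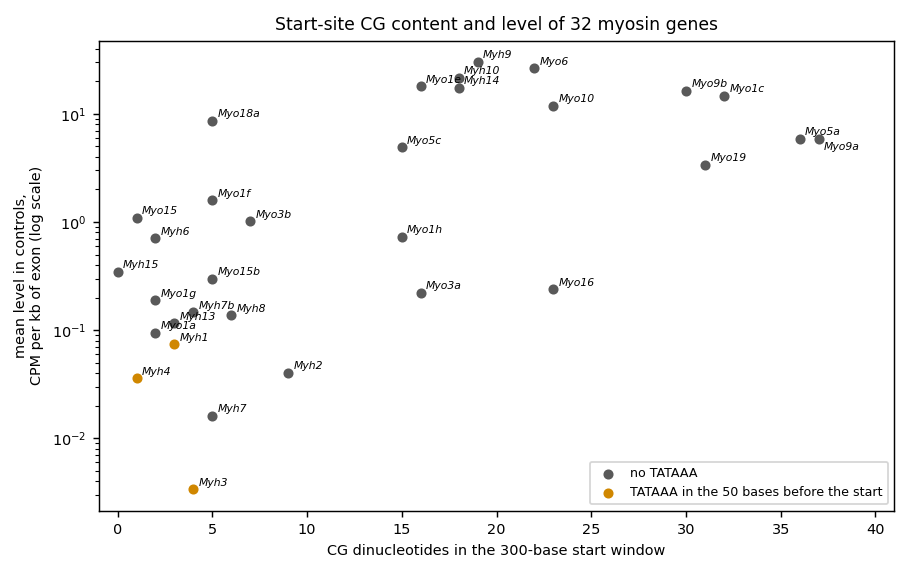
Each point is 1 of 32 myosin genes, with the number of CG dinucleotides in the 300-base window at its start on the x axis and its mean level in the 6 controls, in CPM per kb of exon, on the y axis (log scale). Orange points have TATAAA in the 50 bases before the start, and all 3 lie below 0.1 CPM per kb with 4 or fewer CG.

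Per length of exon, the summed level of the 38 members was 209 ± 8.15 CPM per kb in controls and 204 ± 12.9 in mutants (SD, n = 6 each). Unconventional myosins held 65.9% ± 1.60 of it in controls and 66.6% ± 1.03 in mutants. The 3 nonmuscle myosin II genes held 33.0% ± 1.66 and 32.1% ± 1.03, the 10 sarcomeric genes 0.772% ± 0.124 and 1.01% ± 0.135, and the smooth muscle heavy chain 0.305% ± 0.0372 and 0.279% ± 0.0581. The ranges of controls and mutants overlapped in each of these classes. Exon length here is the union of all annotated exons of a gene, which lowers the value of genes with many or long alternative exons.

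In controls the order of the level per length began with *Myh9*, at 30.1 CPM per kb, which forms nonmuscle myosin IIA, and *Myo6*, at 26.3, which walks towards the minus end of actin and anchors the base of stereocilia. *Myh10* and *Myh14*, the other nonmuscle myosin II heavy chains (IIB and IIC), stood at 21.5 and 17.4 CPM per kb, with *Myo1e*, a membrane-linked class I myosin of endocytosis and adhesion, between them at 18.0. *Myo9b*, a motor that also carries a signalling domain, *Myo1c*, a class I myosin linked to adaptation in hair cells, and *Myo10*, which moves to the tips of filopodia, followed at 16.4, 14.7 and 11.9 CPM per kb. From rank to rank the control values mostly overlapped, and within these 8 genes the ranges were separate only between *Myo6* and *Myh10* and between *Myo1c* and *Myo10*. After *Myo10* came, among others, *Myo18a* at 8.66, *Myo5a* at 5.92, *Myo9a* at 5.82, *Myo1d* at 5.75, *Myo5c* at 4.89, *Myo19* at 3.38 and *Myo5b* at 3.10 CPM per kb. Control ranges were also separate between *Myo10* and *Myo18a*, between *Myo1d* and *Myo5c*, and between *Myo5b* and *Myo1f*, the next in the order at 1.58.

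The remaining members lay lower. *Myo15* and *Myo3b*, motors of stereocilia tips, stood at 1.10 and 1.01 CPM per kb, and *Myo3a*, which also acts there, at 0.222. *Myo1h* (0.733), *Myh6* (0.708), *Myh11* (0.640), *Myh15* (0.346), *Myo15b* (0.296), *Myo16* (0.238), *Myo1g* (0.189), *Myh7b* (0.146), *Myh8* (0.137) and *Myh13* (0.116 CPM per kb) were next. Under 0.1 CPM per kb lay *Myo1a*, *Myh1*, *Myo7b*, *Myh2*, *Myh4*, *Myo18b*, *Myh7* and *Myh3*. In this lower part control ranges were separate between *Myh11* and *Myh15* and between *Myh7* and *Myh3*, the last 2 of the order.

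**Figure D2:**
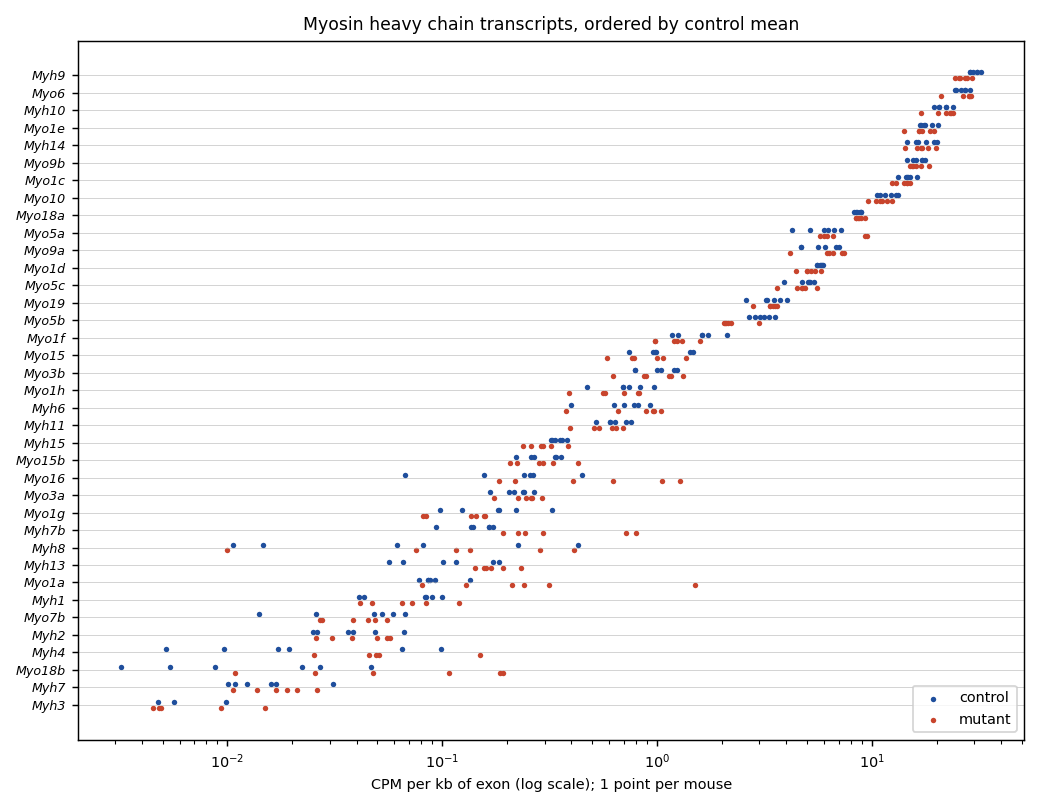
Level of 37 members in CPM per kb of exon (log scale), with 1 point for each of 6 controls (blue) and 6 mutants (red), ordered by the control mean. Mice with 0 counts are not drawn. The order runs from *Myh9* at 30.1 CPM per kb to *Myh3* at the bottom, and most genes show blue and red points over the same range.

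The question put to the family by the design was whether any heavy chain differs between *Jag1* mutants and controls. In edgeR's quasi-likelihood test, 36 members had enough counts to be tested, all but *Myh3* and *Myh7*. None of the 36 had an adjusted p under 0.05, against 35 of 18459 genes, or 0.19%. DESeq2 called 5 members (*Myh7b*, *Myh9*, *Myo18b*, *Myo1a* and *Myo5b*) against 3.35% of all genes, and limma-voom called 0 against 0.103%. At an adjusted p under 0.1 edgeR listed 2 members, *Myo5b* and *Myh7b*, against 1.37% of all genes. In edgeR 9 of the 36 members (25%) had an unadjusted p under 0.05, against 10.6% of all genes. Of these, 5 (13.9%) were higher in mutants (*Myh7b*, *Myo1a*, *Myo18b*, *Myo16* and *Myh13*) against 6.52% of all genes, and 4 (11.1%) were lower (*Myo5b*, *Myh9*, *Myo1d* and *Myo1f*) against 4.04%. In the exact permutation test 7 of the 36 had an unadjusted p under 0.05, against 10.6% of all genes. After adjustment 0 of all 18459 genes passed in that test, so it could not set any member apart. The median log2 fold change was -0.02 over the 36 members and 0.00 over all genes tested, with 15 members above 0 and 21 below. The values of the 6 mutants and 6 controls did not overlap in 1 member, *Myh7b*, against 0.997% of all genes (0.618% with mutants higher and 0.379% with mutants lower).

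**Figure D3:**
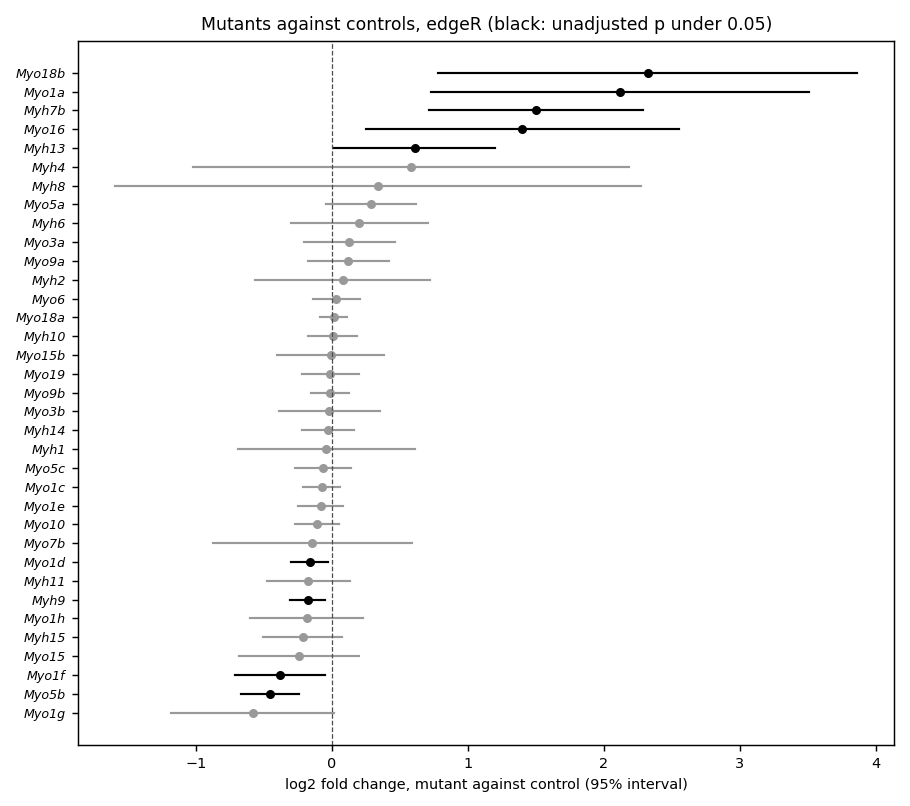
Log2 fold change of mutants against controls for 35 of the 36 members tested (x axis), with 95% intervals from edgeR, sorted by size. Black marks the 9 members with an unadjusted p under 0.05. The 4 largest changes, *Myo18b*, *Myo1a*, *Myh7b* and *Myo16*, are above 0 with wide intervals, while the members lower in mutants among the black ones changed by 0.45 or less on the log2 scale.

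Myosins of the hair bundle and its base showed no change that passed a test. *Myo6* ranged from 295 to 345 CPM with a median of 320 in controls and from 253 to 348 CPM with a median of 343 in mutants. The groups overlapped, and the log2 fold change was 0.03 (95% interval -0.14 to 0.20). *Myo15*, which delivers proteins to stereocilia tips, averaged 14.0 ± 3.69 CPM in the control and 11.8 ± 3.48 CPM in the mutant mice (SD, n = 6 each), with a log2 fold change of -0.24 (95% interval -0.68 to 0.20). The class III motors *Myo3a* and *Myo3b*, which carry a kinase domain, had log2 fold changes of 0.13 (-0.20 to 0.46) and -0.02 (-0.39 to 0.36). *Myo1c* changed by -0.07 (-0.21 to 0.06) and *Myo10* by -0.11 (-0.27 to 0.05) on the log2 scale. The intervals therefore leave room for a decrease of the size of the *Myo5b* difference in *Myo15* and an increase of that size in *Myo3a*. In *Myo3b*, *Myo6*, *Myo1c* and *Myo10* they leave room only for smaller changes. Beside these, the summed level of 16 hair cell markers was 235 to 294 CPM in controls and 255 to 357 CPM in mutants, and 2 of the 16, *Calb2* and *Atp2b2*, had an unadjusted p under 0.05, both higher in mutants. Over the 16 markers the median log2 fold change was -0.01, with 7 above 0. *Calb2* and *Atp2b2* are made by neurons too.

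Among nonmuscle myosin II genes, *Myh9* was lower in mutants by a small amount. Controls 1 to 6 had 369, 398, 418, 382, 369 and 400 CPM, and mutants 1 to 6 had 315, 360, 351, 334, 328 and 377 CPM. In 5 of 6 mutants *Myh9* lay below the lowest control, and mutant 6 lay within the control range. This was a log2 fold change of -0.18 (SE 0.06, 95% interval -0.31 to -0.05), with an adjusted p of 0.238 in edgeR and 0.0422 in DESeq2, and the exact permutation p over the 12 mice was 0.00649 before adjustment. *Myh10* (225 ± 16.5 CPM in controls, 226 ± 27.6 in mutants) and *Myh14* (127 ± 15.2 and 124 ± 13.5, SD, n = 6 each) overlapped throughout, with log2 fold changes of 0.01 (-0.17 to 0.19) and -0.03 (-0.22 to 0.16). *Myh9* lies on chromosome 15 at 77760587 to 77842175, minus strand (GENCODE M21, GRCm38).

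*Myo5b* had the smallest edgeR p of the family. Its motor moves recycling endosomes to the apical side of epithelial cells, and it lies on chromosome 18. Controls 1 to 6 had 29.6, 32.5, 30.9, 26.1, 34.5 and 27.9 CPM, and mutants 1 to 6 had 20.02, 29.2, 20.8, 21.7, 20.3 and 20.5 CPM. Mutants 1, 3, 4, 5 and 6 were close together, below the lowest control, and mutant 2 stood within the control range. The log2 fold change was -0.45 (SE 0.10, 95% interval -0.67 to -0.24), or 0.73 of the control level. The adjusted p was 0.0783 in edgeR and 0.00255 in DESeq2, and the exact permutation p before adjustment was 0.00649. Without mutant 2, the mutant within the control range, the log2 fold change was -0.55 with an adjusted p of 0.0103 in edgeR. This was the lowest adjusted p of the 12 fits that each left out 1 mouse. In the others it lay between 0.0596 (without mutant 5) and 0.190 (without control 3), so none of those passed 0.05. When edgeR was given all mice and a score for neurons and for Schwann cells, the log2 fold change was -0.67 with an adjusted p of 0.619. That fit called 1 gene of all tested, against 35 without the scores, so a higher adjusted p is not particular to *Myo5b*. The markers behind the scores were higher in most mutants, so the fit cannot separate the scores from genotype. The summed level of 15 supporting cell markers was 5578 to 6702 CPM in controls and 5344 to 6404 CPM in mutants, and 3 of the 15 were lower at an unadjusted p under 0.05. The part of these cells in the *Myo5b* difference was not tested.

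The other class V motors, which carry vesicles and melanosomes, overlapped between genotypes. *Myo5a*, abundant in neurons and melanocytes, ranged from 63.1 to 106 CPM (median 90.5) in controls and from 84.9 to 140 CPM (median 94.8) in mutants, with mutants 2 and 4 highest at 140 and 137 CPM. Its log2 fold change was 0.29 (95% interval -0.04 to 0.62, edgeR adjusted p = 0.579). *Myo5c*, found in gland and other epithelia, ranged from 38.0 to 52.1 CPM in controls and from 35.1 to 53.8 CPM in mutants.

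*Myh7b* was higher in every mutant than in any control. It is an ancient relative of the slow and cardiac heavy chains, made in heart, in some muscle fibres and in brain. Controls 1 to 6 had 1.14, 1.10, 0.928, 0.623, 1.10 and 0.900 CPM, and mutants 1 to 6 had 4.78, 5.31, 1.27, 1.61, 1.50 and 1.96 CPM. Mutants 1 and 2 stood far above the other mutants, of which mutant 3 lay closest to the highest control. On the log2 scale the difference was 1.50 (SE 0.37, 95% interval 0.71 to 2.28), or 2.83-fold, with an adjusted p of 0.0954 in edgeR and 0.00427 in DESeq2. The exact permutation p was 0.00216, the smallest that 924 divisions of the mice can give. It did not pass adjustment over all genes, and no gene tested did. The gene lies on chromosome 2 at 155611212 to 155634307, plus strand (GENCODE M21, GRCm38), and a short stretch of its exons is shared with *Trpc4ap* on the opposite strand. Whether counting used strand is not given in the sources used here.

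*Myo16* and *Myo18b* were high in the same mutants as *Myh7b*. *Myo16*, an ankyrin-repeat myosin made mainly in brain, had 3.53, 2.02, 1.24, 0.530, 1.91 and 2.09 CPM in controls 1 to 6 and 8.37, 10.2, 3.22, 1.72, 1.45 and 4.96 CPM in mutants 1 to 6. Mutants 1, 2 and 6 lay above all controls and the others lay within the control range. The log2 fold change was 1.40 (SE 0.53, edgeR adjusted p = 0.326). *Myo18b*, needed to assemble sarcomeres in muscle, had 0.0344 to 0.499 CPM (median 0.166) in controls and 0.117 to 2.06 CPM (median 0.833) in mutants, from 1 to 68 counts per library. Its exons overlap those of an antisense RNA, *1700095B10Rik*. Mutants 1, 2, 6 and 3 lay above all controls, at 1.99, 2.06, 1.16 and 0.509 CPM. The log2 fold change was 2.32 (SE 0.71), with an adjusted p of 0.175 in edgeR and 0.0273 in DESeq2.

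*Myo1a*, the class I myosin of the intestinal brush border, gave another order of mice. Controls lay between 0.289 and 0.499 CPM, from 9 to 16 counts, and mutants 1 to 6 had 1.17, 0.789, 0.480, 5.58, 0.301 and 0.890 CPM. Mutant 4 stood apart with 191 counts, and mutants 1, 2 and 6 also lay above the highest control. Its log2 fold change was 2.12 (SE 0.64, edgeR adjusted p = 0.167, DESeq2 adjusted p = 0.0133), and without mutant 4 it was 1.04.

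In *Myh7b*, *Myo16*, *Myo18b* and *Myo1a* the highest value came from a mutant with a high neuron sum, but not from the same one. *Myh7b*, *Myo16* and *Myo18b* were highest in mutants 1 and 2, which had the highest Schwann cell sums, at 7542 and 5779 CPM. Mutant 4 had the highest neuron sum and the lowest Schwann cell sum of the mutants, at 2257 CPM, and its *Myh7b*, *Myo16* and *Myo18b* were only 1.61, 1.72 and 0.117 CPM. With a neuron and a Schwann cell score as covariates in edgeR, the log2 fold change was -0.01 for *Myh7b*, -0.85 for *Myo16*, -0.28 for *Myo18b* and 0.74 for *Myo1a*, each with an adjusted p above 0.99. With these scores edgeR called 1 gene of all tested, against 35 without them, so a high adjusted p is not particular to these 4. The markers behind the scores were higher in most mutants, so this fit cannot separate the scores from genotype. Without mutants 1, 2 and 4, an alternative chosen after the data were seen, the log2 fold changes of the 4 members, in the same order, were 0.71, 0.77, 1.67 and 0.66. *Slc17a7*, which loads glutamate into synaptic vesicles and marks spiral ganglion neurons, was picked with its values already known, and showed 31.3, 26.5, 11.2, 7.42, 2.13 and 17.8 CPM in mutants 1 to 6 against 0.187 to 8.20 CPM in controls, with mutants 1, 2 and 6 highest. Mutant 4 held 155 CPM of *Prph*, a filament protein of peripheral and brainstem neurons, against 0.520 to 1.35 CPM in the other 11 mice. *Prph* is on the neuron list and was singled out here with its values known. Mutant 4 also had 106 counts of *Tlx3*, a transcription factor of brainstem and sensory neurons picked with its values known, against at most 1 count in any other mouse. *Myo1a* was highest in that mouse and *Myo16* was not. The part of these other cells in the 4 differences was not tested.

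**Figure D4:**
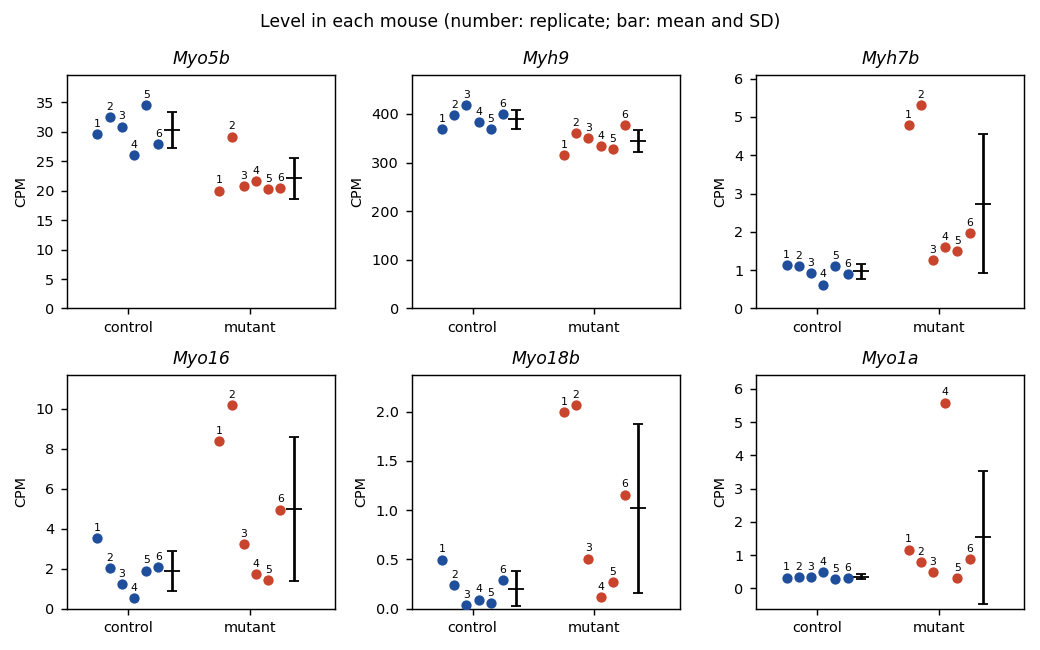
CPM of 6 members in each mouse (number: replicate), with the mean and SD of each group beside the points. *Myo5b* and *Myh9* sit lower in 5 of 6 mutants, *Myh7b*, *Myo16* and *Myo18b* are highest in mutants 1 and 2, and *Myo1a* is highest in mutant 4.

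*Myo1f* and *Myo1g* are made mainly in leukocytes, where they act at the membrane. *Myo1f* had 5.85, 10.5, 8.01, 8.57, 6.22 and 8.02 CPM in controls 1 to 6 and 5.95, 4.85, 6.47, 4.85, 6.18 and 7.89 CPM in mutants 1 to 6. All mutants lay below the control median, with the groups overlapping. The difference was -0.38 on the log2 scale (SE 0.16, edgeR adjusted p = 0.371). *Myo1g* averaged 1.31 ± 0.559 CPM in the control and 0.882 ± 0.245 CPM in the mutant mice (SD, n = 6 each), with a log2 fold change of -0.58 (SE 0.28) that did not pass the test. Beside them, 9 of 12 macrophage and leukocyte markers were lower at an unadjusted p under 0.05, none had a log2 fold change above 0, and none passed an adjusted p of 0.05. Their sum was 305 to 372 CPM in controls and 251 to 313 CPM in mutants, with control 1 below mutants 1 and 6. The sum of 7 erythroid markers was 309 to 957 CPM in controls and 142 to 550 CPM in mutants, with 2 of the 7 lower at an unadjusted p under 0.05. The part of blood cells in the myosin values was not tested.

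Pearson r was taken between log2(CPM + 0.1) of a member and log2 of a marker sum. Across the 12 mice *Myo1f* followed the macrophage and leukocyte sum, with Pearson r = 0.909 (permutation p adjusted over 8 relations = 0.00032) and Spearman rho = 0.881 (adjusted permutation p = 0.00312). Without the 2 mice farthest from the median of the sum r was 0.840, and within genotypes it was 0.896 in controls and 0.879 in mutants. *Myo16* against the neuron sum gave r = 0.555 (adjusted permutation p = 0.126) and rho = 0.706 (adjusted permutation p = 0.0524), and r = 0.918 without the 2 mice farthest from the median. Within genotypes this r was 0.731 in controls and 0.222 in mutants. *Myo5a* against the same sum gave r = 0.665 (adjusted permutation p = 0.0809) and rho = 0.413 (adjusted permutation p = 0.368). *Myo6*, *Myo15* and *Myo3a* against the hair cell sum gave r = -0.215, -0.186 and 0.207, *Myh11* against the smooth muscle sum gave 0.238, and *Myh3* against the skeletal muscle sum gave 0.571 from counts of 0 to 3. None of these 5 passed adjustment over the 8 relations. For *Myo3a* r was 0.976 within controls (exact permutation p = 0.00556, not adjusted), -0.463 within mutants and 0.508 without the 2 mice farthest from the median. The hair cell sum holds *Calb2*, which was 18.3 to 29.9 CPM in controls and 23.9 to 137 CPM in mutants. In controls the largest parts of the neuron sum were *Uchl1* and *Syt1*, which averaged 76.3 and 74.3 CPM. Neither had an unadjusted edgeR p under 0.05 between genotypes.

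**Figure D5:**
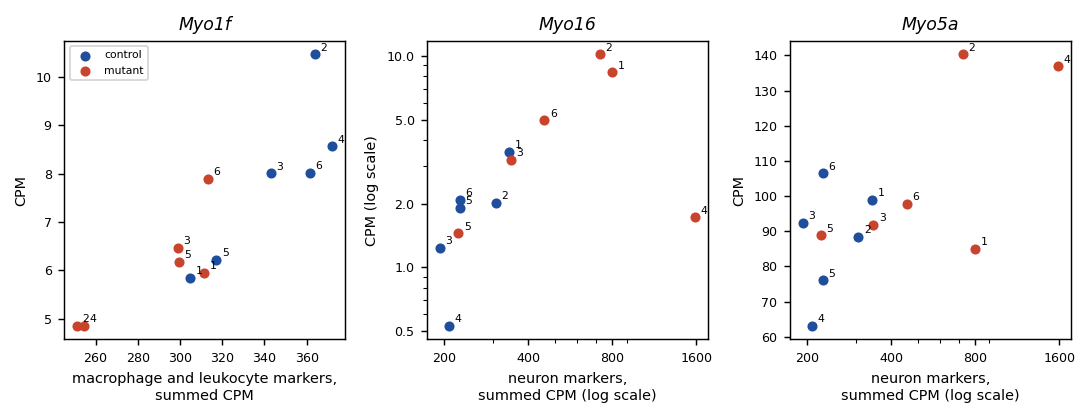
Level of *Myo1f*, *Myo16* and *Myo5a* in CPM against the summed CPM of macrophage and leukocyte markers or of neuron markers, 1 point per mouse with its replicate number (controls blue, mutants red). The neuron sum and *Myo16* are on log scales. *Myo1f* rises with its marker sum in both groups (r = 0.909 over the 12 mice, on log2 values). Mutant 4, with the highest neuron sum, has a *Myo16* level of 1.72 CPM, within the control range.

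Among the remaining class I myosins, *Myo1d*, which acts in endosomal traffic, was 36.0 to 38.4 CPM in controls and 28.7 to 37.4 CPM in mutants, with 5 of 6 mutants below the lowest control. Its log2 fold change was -0.16 (SE 0.06, edgeR adjusted p = 0.343). *Myo1e* (103 ± 7.67 CPM in controls, 97.3 ± 10.8 in mutants, SD, n = 6 each) changed by -0.08 on the log2 scale (-0.25 to 0.08). *Myo9b*, at 123 ± 8.92 and 121 ± 9.39 CPM, changed by -0.01 (-0.15 to 0.13).

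Most skeletal muscle heavy chains had few counts. *Myh8*, the perinatal skeletal heavy chain, ranged from 0.125 to 5.06 CPM in controls and from 0.117 to 4.83 CPM in mutants, and its log2 fold change of 0.34 had a 95% interval from -1.59 to 2.27. *Myh3*, the embryonic form, had 0 to 3 counts per library, a range that 3 counts or fewer cannot separate from 0. *Myh7*, the slow form of heart and muscle, had 3 to 9 counts. *Myh1*, *Myh2* and *Myh4*, of adult fast fibres, stayed at or below 0.904 CPM in every mouse, and *Myh13*, of eye and larynx muscle, averaged 0.716 ± 0.329 CPM in the control and 1.09 ± 0.202 CPM in the mutant mice (SD, n = 6 each; log2 fold change 0.61, edgeR adjusted p = 0.448). Of the fibre markers *Acta1* and *Ckm* did not exceed 0.321 and 0.0581 CPM in any library, while *Tnnt1* ranged from 2.52 to 6.36 CPM and *Myl1* from 0.125 to 8.10 CPM. The sum of 22 skeletal muscle markers was 137 to 154 CPM in controls and 126 to 178 CPM in mutants, and *Mybpc1* made up 107 to 122 CPM of it in controls. The 6 skeletal genes lie side by side on chromosome 11 and are close in sequence, so their counts are uncertain where reads fit several of them.

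*Myh6*, the alpha cardiac heavy chain, was 4.76 ± 1.23 CPM in controls and 5.48 ± 1.69 CPM in mutants, and *Myh15*, a slow tonic form, 2.19 ± 0.154 and 1.89 ± 0.324 CPM. *Myh11*, the smooth muscle heavy chain of vessel walls, was 4.86 ± 0.643 and 4.31 ± 0.828 CPM (SD, n = 6 each), with a log2 fold change of -0.17 (-0.48 to 0.13). The sum of 13 smooth muscle and pericyte markers was 1131 to 1290 CPM in controls and 1044 to 1188 CPM in mutants.

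The slow and cardiac genes *Myh7b*, *Myh6* and *Myh7* each hold a microRNA in an intron on their own strand, shown here because *Myh7b* was the member whose groups did not overlap. The mature sequences are from RefSeq on GRCm38.p6, with the seed (bases 2 to 8) in capitals. They lie at chr2:155622893-155622913 (plus strand, in *Myh7b*), chr14:54949072-54949093 (minus, in *Myh6*) and chr14:54975710-54975731 (minus, in *Myh7*).

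miR-499-5p: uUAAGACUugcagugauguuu
miR-208a-3p: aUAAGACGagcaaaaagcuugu
miR-208b-3p: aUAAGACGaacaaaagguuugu

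miR-208a-3p and miR-208b-3p share the seed UAAGACG, and miR-499-5p has UAAGACU. Reads over the *Mir208a* hairpin numbered 4 to 9 in controls and 4 to 16 in mutants, and those over *Mir208b* were 0 in 11 mice and 4 in mutant 4. Such reads come from a library of long RNA and do not measure the mature microRNA. No value for *Mir499* was analysed here.

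No listed partner of the motors passed the test. Among myosin light chains and related calmodulin-like proteins, 14 of 16 genes were tested and none passed an adjusted p of 0.05 in edgeR. *Myl1*, a light chain of fast muscle, averaged 0.870 ± 1.01 CPM in the control and 3.75 ± 3.15 CPM in the mutant mice (SD, n = 6 each), with a log2 fold change of 2.12 (SE 0.86, edgeR adjusted p = 0.392). *Calml4*, a light chain of brush border myosin, averaged 56.8 ± 7.11 CPM in the control and 45.7 ± 4.28 CPM in the mutant mice, with a log2 fold change of -0.32 (SE 0.09, edgeR adjusted p = 0.126). Of 17 kinases, phosphatases and other regulators of myosin II none passed, and the smallest p was that of *Cdc42bpb*, a kinase downstream of Cdc42, at -0.12 on the log2 scale, followed by *Ppp1r12b*, a myosin phosphatase subunit, at 0.25. Of 12 tested genes of myosin folding and the thick filament and of 20 cargo adaptors and partners of unconventional myosins, none had an unadjusted p under 0.05. *Unc45a*, a myosin chaperone, and the adaptors *Dab2* and *Calcoco1* had among the smallest p of their lists.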

How the data were processed

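Per the labels' processing notes, reads were handled with Trimmomatic 0.32, STAR 2.4.2a, HTSeq 0.9.1 and DESeq2 1.10.1 on GRCm38.p4; the annotation and strand setting are not given in the sources used here. Raw counts of reads for each symbol were deposited by the authors with 1 column for each mouse, beside a table of their DESeq2 comparison (mean signal, fold changes, p-values), which was not used. Groups and replicate numbers came from the labels. A minimum mean count of 5 kept 18459 genes, which were compared with edgeR 4.0.16 in R 4.3.3 (TMM, quasi-likelihood, robust, no covariates), with Benjamini-Hochberg adjustment over all of them. CPM uses TMM factors, and exon lengths come from GENCODE M21, which held 94.7% of symbols and all members. Single members were also compared by exact two-sided permutation of log2(CPM + 0.1) over the 924 divisions of the mice. Alternatives were DESeq2 1.42.0, limma-voom (limma 3.58.1), other normalizations, filters, pseudocounts, covariates, a replicate block and leaving out each mouse. Tests were checked on simulated counts.

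Named in full were members past an adjusted p of 0.05, the 8 with the smallest unadjusted p, the 6 highest per length in controls and 14 chosen by role, and of each partner list the 2 genes with the smallest p. Members and lists were chosen with earlier results of these data known. Some genes, among them a myosin that matches the pattern and a member that the counts include, are not reported here. Total counts were 28498549 to 36134983 per library, and mice of a group differed by more than counting error. The mice are separate animals by the labels, but the litters are not tied to mice.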

Additional observations from a re-analysis of the deposited data

Results flagged for a closer look

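In 6 of 72 groups of 6 mice, 1 mouse stood apart from the rest by Dixon's gap test at the 95% level, where chance gives about 5% of groups. Mutant 1 was low in *Myo6*, at 253 CPM against 319 to 348 CPM in the other mutants, and in *Myo19*, a motor of mitochondria, at 19.9 CPM against 23.8 to 25.7 CPM. Mutant 2 was high in *Myo5b*, at 29.2 CPM against 20.02 to 21.7 CPM. Mutant 4 was high in *Myo1a*, at 5.58 CPM against 0.301 to 1.17 CPM, and control 4 was high in the same gene at 0.499 CPM against 0.289 to 0.344 CPM. Mutant 3 was high in *Myh4*, at 0.904 CPM against 0 to 0.307 CPM.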

How the results depend on the processing

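The count of members with an adjusted p under 0.05 was 0 and moved to 1 with no filter on low counts (*Myo5b*), to 5 in DESeq2 and to 2 at an adjusted p under 0.1, and it lay between 0 and 1 when each mouse was left out (*Myo5b* without mutant 2, *Myh7b* without mutant 5). Without mutants 1, 2 and 4, chosen after seeing the data, it was 1 (*Myo5b*), beside 33 called over all genes tested (14 higher, 19 lower). Over all genes the count of 35 (20 higher, 15 lower) moved to 57 with no filter, to 619 (473 higher, 146 lower) in DESeq2, to 19 (6 higher, 13 lower) in limma-voom, to 253 (187 higher, 66 lower) at an adjusted p under 0.1 and to 1 with neuron and Schwann cell scores as covariates. It lay between 14 and 357 when each mouse was left out, with the most without mutant 5.

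With the replicate number as a block 1 member (*Myo18b*, adjusted p = 0.0287) and 131 genes (115 higher) were called. Same-numbered mice showed little shared deviation (correlations from -0.187 to 0.272, own number best in 2 of 6). This check cannot exclude that the numbers mark a pairing, and the main fit did not use them as one.

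Log2 fold changes of 20 named members gave 200 values under other settings, of which 183 kept sign and side of the threshold, 8 newly passed it and 9 turned sign. With neuron and Schwann cell scores these were *Myh7b* (-0.011), *Myo16* (-0.85), *Myo18b* (-0.28), *Myo5a* (-0.12) and *Myo10* (0.0074). *Myh10* turned with no filter (-0.0013) and in limma-voom (-0.00058), *Myh14* with a skeletal muscle score (0.0039) and *Myo3b* without mutants 1, 2 and 4 (0.14). Among these 20, leaving out each mouse turned only *Myh10* (-0.023 to 0.068), *Myh14* (-0.074 to 0.020), *Myo3b* (-0.11 to 0.087) and *Myo9b* (-0.053 to 0.010). Some members outside the 20 turned too, among them *Myh8* (-0.13 to 1.12) and *Myh4* (-0.061 to 1.23). The causes were not tested. Members under 1 CPM rest on few counts. With a pseudocount of 1 CPM in place of 0.1 the count at an unadjusted permutation p under 0.05 was again 7.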
